A study of Mus musculus with 4 samples.

Results

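Convergent gene pairs are neighbours on opposite strands whose transcription runs towards each other, so that their 3′ ends meet. The pairs described here were taken from the gene annotation deposited with a mouse macrophage RNA-seq study, on build GRCm38. A pair consisted of 2 protein-coding genes on chromosomes 1 to 19 or X. The plus-strand gene started first and ended inside the span of the minus-strand gene, and the merged exons of their protein-coding transcripts had at least 1 base in common. This rule used annotation only, with no value from any library. It gave 665 pairs made of 1325 genes, which was 6.1% of the 21714 genes with a protein-coding transcript on these chromosomes.

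The study used bone marrow derived macrophages, which are grown from marrow cells with the growth factor M-CSF, from cohoused littermate C57/BL6 mice that were Piezo1 fl/fl or Piezo1 fl/fl with LysM Cre+. LysM Cre acts in myeloid cells and removes the floxed part of Piezo1, a channel opened by membrane stretch, so every group carried the floxed alleles. Cells of each genotype were held for 6 h under static or under cyclic hydrostatic pressure, and each of the 4 groups was a single poly(A) RNA library. Expression values of these libraries were not analysed here, and no group comparison was made.

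A messenger RNA ends where the cleavage and polyadenylation machinery cuts it, usually a short way downstream of a signal with the letters AATAAA or ATTAAA. The stretch between the stop codon and that cut is the 3′ untranslated region (3′ UTR), which carries binding sites for microRNAs and RNA-binding proteins. Where convergent genes overlap, the ends of their transcripts are complementary to each other. A read from such a stretch can be given to 1 of the genes if the library kept the strand, if the read or its mate extends past the overlap, or if it crosses a splice junction of that gene.

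The shortest overlaps that hold a poly(A) signal for each gene are printed first, because in them a single run of bases holds a signal for each transcript end. Of 21 overlaps of 12 to 30 bases read, with 1 chromosome left out, 4 contained AATAAA or ATTAAA on both strands, 4 on 1 strand and 13 on neither. The 4 are shown 5′ to 3′ on each strand, with the hexamers in capitals. They were Rab3a-Mpv17l2 (GRCm38 chr8:70758649-70758677), Msh6-Fbxo11 (chr17:87990859-87990883), BC048609-Zfpl1 (chr19:6080762-6080788) and Dpcd-Fbxw4 (chr19:45578254-45578279). Pairs are written with the plus-strand gene first.
Rab3a, plus strand: ttgacATTAAAgagaatttaatgaatttc
Mpv17l2, minus strand: gaaattcATTAAAttctctttaatgtcaa
Msh6, plus strand: ttatgatctAATAAActttattttt
Fbxo11, minus strand: aaaAATAAAgtttattagatcataa
BC048609, plus strand: tttAATAAAgtctgttgtttatttgca
Zfpl1, minus strand: tgcaAATAAAcaacagactttATTAAA
Dpcd, plus strand: tttgtcaacaATTAAAttttattttt
Fbxw4, minus strand: aaaAATAAAatttaattgttgacaaa

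Rab3a encodes a small GTPase of synaptic vesicles, Msh6 a subunit of the mismatch repair sensor, and Fbxo11 and Fbxw4 encode F-box proteins. In 3 of these overlaps the hexamers of the strands used different bases. In BC048609-Zfpl1 hexamers of opposite strands had bases in common, since the minus strand also carried ATTAAA at its last bases.

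A second set shows gene ends that only touch, as the last 30 bases of each gene with a hexamer in capitals. Itga7, which encodes a laminin-binding integrin subunit, and Mettl7b, which encodes a methyltransferase-like protein, had 1 base in common, chr10:128958277-128958277. Sytl3 and Ezr, which encodes the membrane-to-actin linker ezrin, had 2 bases in common, chr17:6738041-6738042. Gpha2, which encodes a glycoprotein hormone subunit, and Ppp2r5b, which encodes a regulatory subunit of protein phosphatase 2A, had 4.
Itga7, plus strand, chr10:128958248-128958277: tggttttgtctatttATTAAAaagtatttg
Mettl7b, minus strand, chr10:128958277-128958306: ctcAATAAAgcagccagagattttattgtc
Sytl3, plus strand, chr17:6738013-6738042: tgttctgatctcAATAAAcgctcaacactg
Ezr, minus strand, chr17:6738041-6738070: ttgttAATAAAtgctgggagttacaggaca
Gpha2, plus strand, chr19:6227739-6227768: cctgtcctcAATAAAgcaagcaatgcttga
Ppp2r5b, minus strand, chr19:6227765-6227794: ggggcagatttAATAAAgagcgaaactcaa

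In each of these 6 ends the hexamer lay outside the shared bases, because overlaps this short cannot hold one. It began between 15 bases (Itga7) and 27 bases (Mettl7b) before the annotated end. The pairs shown were ones with a hexamer at both ends, so a signal for each gene follows from the choice. Not every such end had one. At overlaps of 1 to 10 bases, 45 of 70 ends read had a hexamer in the longer stretch searched below.

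The length of the overlap varied over more than 3 orders of magnitude. The median was 244 bases, the quartiles were 83 and 621 bases, and the range ran from 1 to 3533 bases. Together the overlaps covered 300324 bases. An overlap of 1 to 10 bases was found in 38 pairs, 11 to 30 bases in 23, 31 to 74 in 91, and 75 to 249 in 187. The larger classes held 117 pairs of 250 to 499 bases, 121 of 500 to 999, 72 of 1000 to 1999 and 16 of 2000 or more. The overlap was at least as long as the 75-base read of the libraries in 513 pairs (77.1%). It was at least as long as both reads of a fragment laid end to end, 150 bases, in 416 pairs (62.6%). Lengths were summed over separate stretches where an overlap had several, so a read need not fit inside such an overlap. Among the shortest overlaps, 10 pairs had exactly 4 bases in common and 9 pairs exactly 9.

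**Figure D1:**
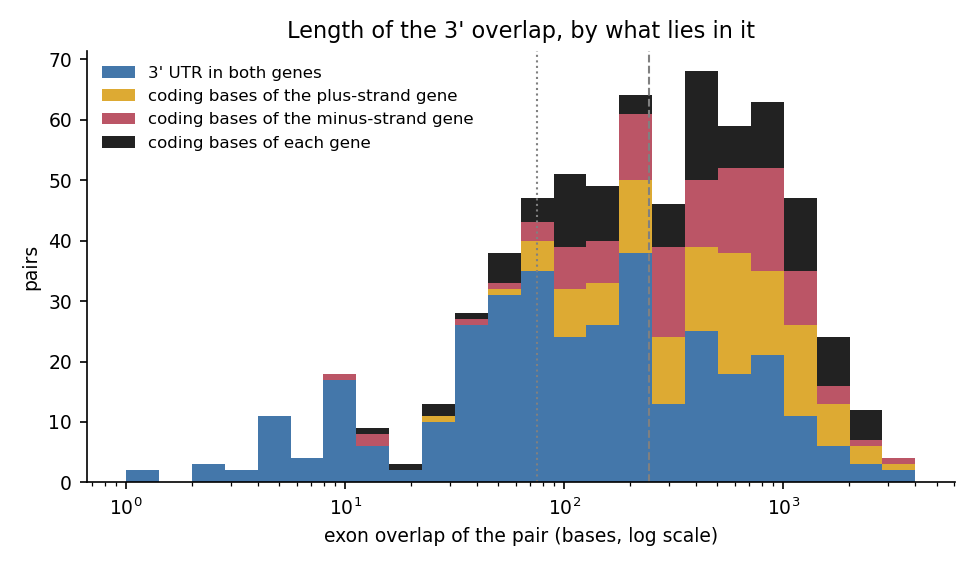
Histogram of the exon overlap of the 665 pairs, with bases on a log scale on the x axis and the number of pairs on the y axis, coloured by what the overlap holds. The dashed line is the median of 244 bases and the dotted line the 75-base read length; most overlaps below the dotted line hold 3′ UTR of both genes, and the coding classes lie mainly above it.

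What the overlap held was split almost evenly. In 336 pairs (50.5%) every shared base was 3′ UTR in both genes. In the other 329 (49.5%) at least 1 gene had coding bases in the overlap. A base was counted as coding where any protein-coding transcript of the gene codes there. Coding bases came from the plus-strand gene alone in 119 pairs (17.9%), from the minus-strand gene alone in 104 (15.6%) and from each gene in 106 (15.9%). The overlaps made of 3′ UTR alone were shorter, with a median of 111 bases against 506, 418 and 396 bases in the 3 coding classes. An overlap of 75 bases or more was found in 205 of the 336 pairs with 3′ UTR alone (61.0%) and in 308 of the 329 with coding bases (93.6%). Measured in bases, 67.6% of the shared sequence was 3′ UTR in both genes, 30.01% coded in 1 gene and 1.90% coded in both at the same position. A base of a 5′ UTR lay in the overlap in 21 pairs, all of them with coding bases.

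The name of these pairs, which places the overlap at the 3′ ends, held for most and not for all. The shared bases formed 1 block in 514 pairs (77.3%). In 473 (71.1%) they lay within last exons of both genes, where the last exon of any coding transcript was counted. In 341 pairs (51.3%) a single block ran from the end of 1 gene to the end of the other. In 211 pairs (31.7%) the overlap was at least 75 bases long and was crossed by no exon boundary of a coding transcript of either gene. No splice junction of those transcripts could then mark the strand of a read lying wholly within the overlap. Other transcripts of these genes were not searched for boundaries.

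The 10 longest overlaps lay between 2160 and 3533 bases. Nr2c2, which encodes the orphan nuclear receptor TR4, and Mrps25, which encodes a protein of the small mitochondrial ribosomal subunit, had 3533 bases in common in 1 block, all 3′ UTR of both (chr6:92169525-92173057). The overlap took 43.5% of the exon bases of Nr2c2 and 58.2% of those of Mrps25. Only 1 of 2 coding transcripts of Nr2c2 reached it, and no overlap was left when each gene was reduced to its longest coding transcript. In GENCODE M21, a second annotation of the same build, the overlap was again 3533 bases. Serpinc1, which encodes antithrombin, and Zbtb37 had 2942 bases in common, again 3′ UTR on both sides, with 1 of 4 and 1 of 5 transcripts reaching. Between the RefSeq spans of these genes 0 bases were in common. A RefSeq span runs from the start to the end of a gene with introns included, so its overlap is not an exon overlap. The RefSeq spans of Nr2c2 and Mrps25 had 3547 bases in common. Gse1 and Gins2, a subunit of the replicative GINS complex, had 2758 bases in common, which was 70.7% of the exon bases of Gins2. Their RefSeq spans had 118 bases in common. Daglb, a diacylglycerol lipase, and Rac1, the GTPase that drives actin protrusions, had 2309 bases in common, 461 between the longest coding transcripts and 0 between their RefSeq spans. These 4 were the only overlaps among the 10 longest that were 3′ UTR in both genes.

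The other 6 of the 10 longest held coding bases. Cd247, the zeta chain of the T cell receptor complex, had 297 coding bases inside the 2918 bases in common with Pou2f1, which encodes the transcription factor Oct-1. Mns1 and Tex9 had 2842 bases in common, of which 213 coded in Tex9; between the longest coding transcripts the overlap was 1694 bases, and between RefSeq spans 527. Echdc1, which encodes a metabolite-clearing decarboxylase, had 409 coding bases in its 2321-base overlap with Rnf146, which encodes a ubiquitin ligase. Clvs1 had 88 coding bases in its 2302-base overlap with Asph, a hydroxylase gene. Tmem140 and 3110062M04Rik had 2168 bases in common, with 558 coding in the former and 252 in the latter at different positions, and 1001 between the longest coding transcripts. Nr1i3, the xenobiotic receptor CAR, and Tomm40l, a mitochondrial import channel, had 2160 bases in common in 10 blocks, with 809 coding in Nr1i3 and 549 in Tomm40l, none of them at the same position. This overlap was 936 bases between the longest coding transcripts and 3304 with exons of all transcripts. RefSeq spans had 6004 bases in common in Cd247-Pou2f1, 2486 in Echdc1-Rnf146 and 2607 in Clvs1-Asph. They had 3176 in Tmem140-3110062M04Rik and 1044 in Nr1i3-Tomm40l.

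The shortest overlaps were 3′ UTR in both genes without exception in the 10 pairs named. Besides Itga7-Mettl7b, the pair Ttc19-Ncor1 had 1 base in common; Ttc19 encodes an assembly factor of respiratory complex III and Ncor1 a nuclear receptor corepressor. Srrm2-Tceb2, Sytl3-Ezr and Treh-Phldb1 had 2 bases in common. Grap-Slc5a10 and Hspb6-Lin37 had 3, and 2700081O15Rik-Rtn3, Dctn2-Mbd6 and Gpha2-Ppp2r5b had 4. In GENCODE M21 the Itga7-Mettl7b overlap was 9 bases and the Srrm2-Tceb2 and Sytl3-Ezr overlaps were 4 bases. Dctn2-Mbd6 was not a pair there. Srrm2-Tceb2, Sytl3-Ezr and Treh-Phldb1 did not overlap between the longest coding transcripts.

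The 5 pairs nearest to the median show how mixed an overlap of ordinary size was. Tmem243-Dmtf1 (245 bases) and Cpsf3l-Pusl1 (242 bases) had 3′ UTR on both sides, and with exons of all transcripts their overlaps were 404 and 697 bases. Bud31, a splicing factor gene, had 51 coding bases among the 244 in common with Ptcd1. Acot8, a peroxisomal thioesterase gene, had 119 coding bases among the 243 in common with Snx21. All 245 bases that Pgs1 had in common with Dnah17, an axonemal dynein heavy chain gene, coded in Dnah17 and were 3′ UTR of Pgs1, but the overlap was 93 bases both in GENCODE M21 and between the longest coding transcripts.

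Piezo1, the gene deleted in this study, was itself a member. It lies on the minus strand of chromosome 8 (chr8:122481698-122551329) and converges with Ctu2, which encodes a subunit of the enzyme that thiolates tRNA (chr8:122476143-122484138). The overlap was 990 bases in 5 blocks between chr8:122481698-122483092, longer than the upper quartile of all pairs. On the Ctu2 side all 990 bases were 3′ UTR, and they made up 32.0% of the exon bases of that gene and 68.9% of its 3′ UTR. On the Piezo1 side 706 bases coded and 284 were 3′ UTR, which was the whole 3′ UTR of Piezo1 and in all 12.0% of its exon bases. Both coding transcripts of Piezo1 reached the overlap, and 2 of 4 of Ctu2 did. The overlap was again 990 bases in GENCODE M21 and between the longest coding transcripts, and 2441 bases when exons of all transcripts of both genes were merged.

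**Figure D2:**
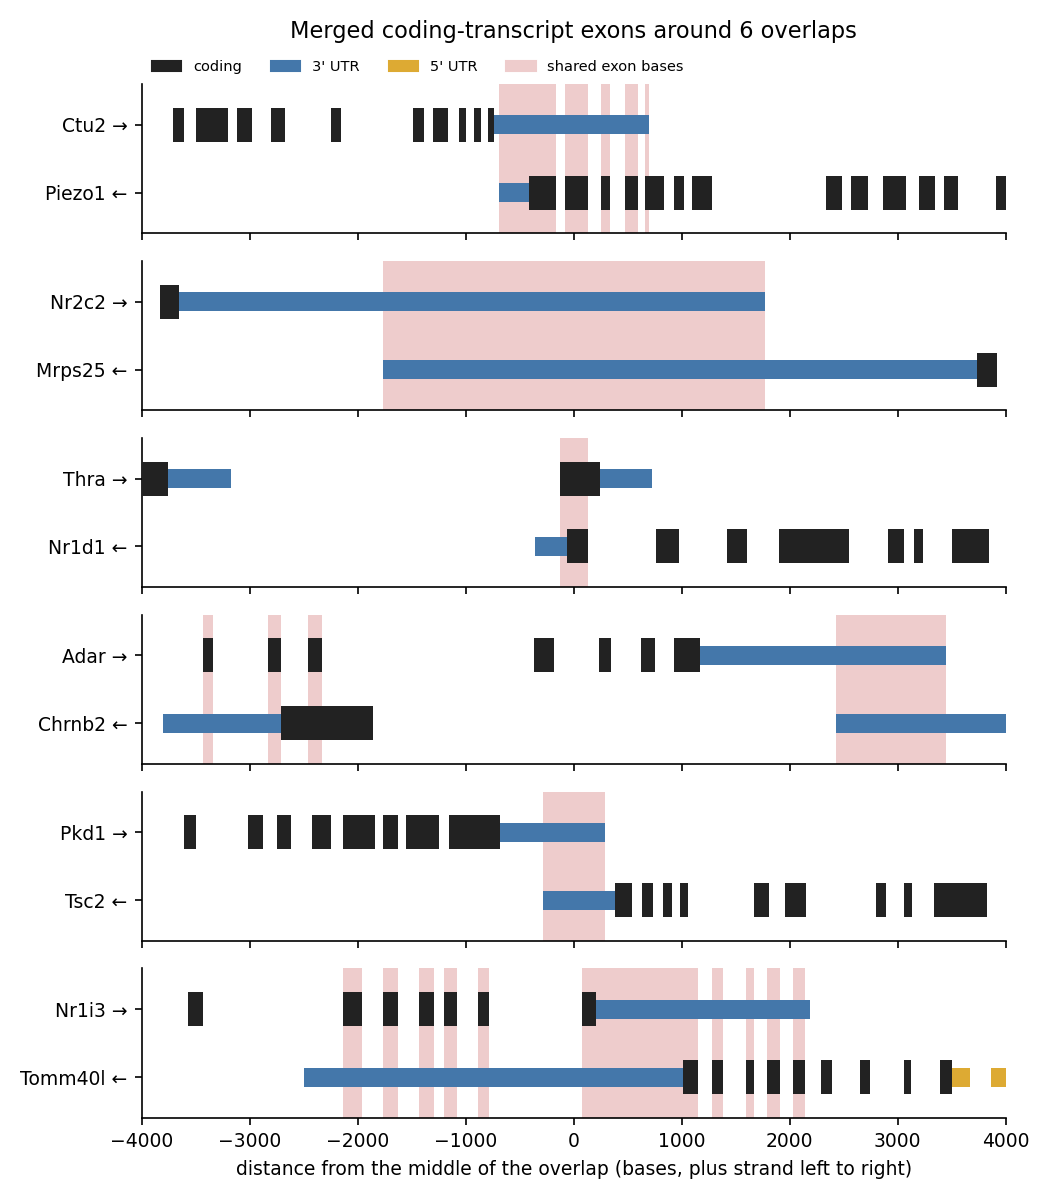
Exon maps of 6 pairs, with the distance from the middle of the overlap in bases on the x axis, the plus-strand gene above and the minus-strand gene below; tall black boxes are coding, low blue boxes 3′ UTR, low yellow boxes 5′ UTR, and pink bands are the shared exon bases. Ctu2-Piezo1 has 5 bands that meet Piezo1 coding exons, Nr2c2-Mrps25 and Pkd1-Tsc2 have a single band of 3′ UTR, Thra-Nr1d1 has a band where both genes code, and Adar-Chrnb2 and Nr1i3-Tomm40l have several bands. The window does not cover whole genes, and exons beyond it are not drawn.

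Bases that coded in both genes at the same position were found in 69 pairs (10.4%). There were 4 to 625 of them in a pair, with a median of 58 and quartiles of 27 and 96. The largest number, 625 of 936 shared bases, was in Gm15557-Gdf5; Gdf5 encodes a growth factor of the BMP family, and Gm15557 is a provisional gene name. Evi5l-Prr36 had 257, Slc1a1-4430402I18Rik 231, Gm17484-Bag4 227, Gm13271-Gm16686 222 and Gm5577-Rab7 204. The longest coding transcripts of Evi5l-Prr36 and of Slc1a1-4430402I18Rik did not overlap, nor did the RefSeq spans of these genes. Slc1a1 encodes a glutamate transporter, Bag4 a cochaperone and Rab7 a GTPase of late endosomes. In 7 of the 10 pairs with the most such bases, D630044L22Rik-Capn15 with 162 among them, 1 or both genes had a provisional name beginning with Gm or ending in Rik. Gm17484-Bag4, Gm13271-Gm16686, Gm5577-Rab7 and D630044L22Rik-Capn15 were not pairs in GENCODE M21.

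Among the same 10 pairs was Thra-Nr1d1, which joins thyroid hormone receptor alpha to REV-ERB alpha, a repressor of the circadian clock. The overlap (chr11:98768157-98768419) was reached by 2 of the 4 coding transcripts of Thra. All of its 263 bases coded in Thra, and 200 also coded in Nr1d1. The other 63 were 3′ UTR of Nr1d1. Avil, which encodes an actin-binding protein, and Tsfm, which encodes a mitochondrial elongation factor, had 165 bases in common that coded in both throughout, and 0 between the longest coding transcripts or RefSeq spans. Adgrl1-Gm10644 had 190.

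The last coding bases of 3 such pairs are printed with the stop codon in capitals, because they show a stop codon lying inside the coding sequence of the gene on the other strand.
Nr1d1, minus strand, chr11:98768220-98768249: ctgctgtccttccgggtggacgcccagTGA
G530012D18Rik, plus strand, chr1:85577266-85577295: cacatatcaggtcaggagttcatctgcTAG
Sp110, minus strand, chr1:85577292-85577321: aagagtaaacctcaaaagaagggtgccTAG
Synj2, plus strand, chr17:6044122-6044151: caagatctctggctaaagtttcgcagaTGA
Serac1, minus strand, chr17:6044114-6044143: gaaactttagccagagatcttgaaaacTGA

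All 30 bases printed for Nr1d1 also coded in Thra. G530012D18Rik and Sp110, which encodes an interferon-inducible nuclear body protein, had 4 coding bases in common, ctag, which read the same on either strand and contain the TAG stop of each gene. Synj2, which encodes a phosphoinositide phosphatase, and Serac1 had 38 bases that coded in both, and the 30 printed for each coded in the other as well. A stop codon could be read for both genes in 67 of these pairs. For each pair 1 transcript per gene was used, the couple with the most coding bases in common. Stop codons of other transcripts were not examined. The stop codons of both genes lay in the coding sequence of the partner in 4 pairs, which were G530012D18Rik-Sp110, Gm13271-Gm16686, Gm17484-Bag4 and Synj2-Serac1. A single stop did so in 40 pairs and neither in 23. The reading frames faced each other in each of the 3 possible ways in similar numbers. In 66 pairs with 1 register, the third codon base of the plus-strand gene faced the first codon base of the minus-strand gene in 22, the second in 20 and the third in 24.

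The overlap took a modest share of most members, with a median of 8.79% of the exon bases of a gene. It took over 20% of at least 1 gene in 244 pairs and of both genes in 116. In 55 pairs it took over 50% of at least 1 gene. The largest share belonged to Rangrf, which encodes a Ran-binding protein: 100% of its 820 exon bases, coding sequence included, lay in 3′ UTR of Slc25a35, a mitochondrial carrier gene, in 5 blocks. That overlap was 33 bases between the longest coding transcripts and between RefSeq spans. G530012D18Rik had 93.3% of its exon bases in Sp110. Tnnc2, fast skeletal muscle troponin C, had 84.6% in exons of Ube2c, a mitotic ubiquitin-conjugating enzyme gene. A630076J17Rik had 84.4% in exons of Prok1, and Phospho1, a phosphatase gene of bone mineralisation, had 84.2% in exons of Abi3. The longest coding transcripts of Ube2c-Tnnc2 and of A630076J17Rik-Prok1 did not overlap. The share was larger for the 3′ UTR alone, with a median of 24.0% and quartiles of 6.64% and 58.0%. The whole 3′ UTR lay in the overlap for 153 of 1320 genes counted once per pair (11.6%). In no pair did this hold for both genes.

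**Figure D3:**
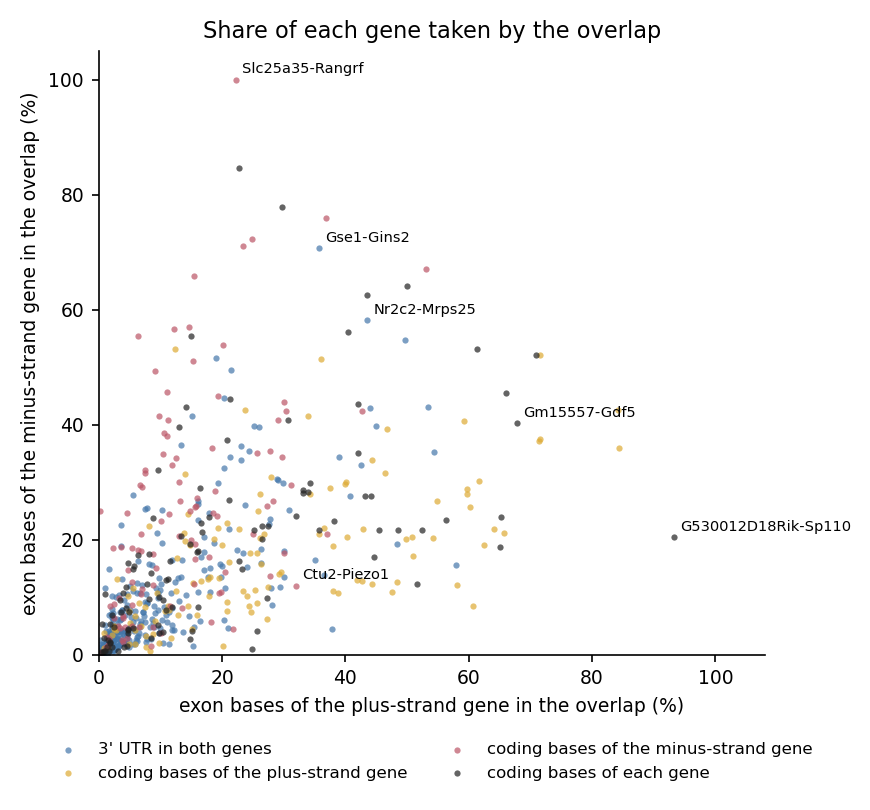
Each point is 1 of the 665 pairs, with the share of the exon bases of the plus-strand gene that lie in the overlap on the x axis and that of the minus-strand gene on the y axis, both in percent, coloured by what the overlap holds. Most points lie near the origin, and Slc25a35-Rangrf reaches 100% on the minus-strand side.

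The largest number of coding bases of a single gene in an overlap was 1328, in Ilk-Taf10, and the next were 1240 in Fam151a-Acot11 and 1216 in Slc1a1-4430402I18Rik. Ilk encodes integrin-linked kinase and Taf10 a subunit of the general transcription factor TFIID; these pairs were picked out after their values were seen. Where the plus-strand gene had coding bases in the overlap (225 pairs), the median was 162, and where the minus-strand gene had them (210 pairs), it was 145.

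Some pairs rested on a few transcripts. Every coding transcript of both genes reached the overlap in 184 pairs (27.7%). In 187 pairs (28.1%) only 1 transcript of each gene did, although at least 1 of the genes had several. The longest coding transcripts did not overlap in 145 pairs (21.8%). Transcripts of the highest support level were present on both sides in 530 pairs (79.7%), and transcripts of the consensus coding set (CCDS) in 543 (81.7%). A provisional gene name was found in 67 pairs (10.1%). In GENCODE M21, 640 of the 665 (96.2%) were pairs by the same rule, with the same length in 491, longer in 124 and shorter in 25. Another 75 of the 715 pairs of M21 were not in the deposited annotation. For 648 pairs both genes were matched by name to RefSeq gene spans of the same build, and the spans overlapped in 525 (81.0%). These spans include introns, so their overlap does not show that exons overlap. Ttc19-Ncor1, with 1 exon base in common, had 16217 bases in common between RefSeq spans.

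Convergent overlaps were set beside the other ways in which genes lie next to each other. Among 5037 couples of neighbouring genes pointing at each other, 636 (12.6%) were pairs by the rule, and these were 95.6% of all pairs. Gene spans of neighbours overlapped in 745 cases, whether or not coding-transcript exons did. Another 103 ended less than 100 bases apart and 432 between 100 and 999 bases apart. Where neighbours did not overlap, the median gap was 10976 bases. Of 1881 exon overlaps between 2 coding genes of any arrangement, 665 were convergent, 729 were on the same strand, 366 were divergent and 121 had 1 gene span inside another on the opposite strand.

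**Figure D4:**
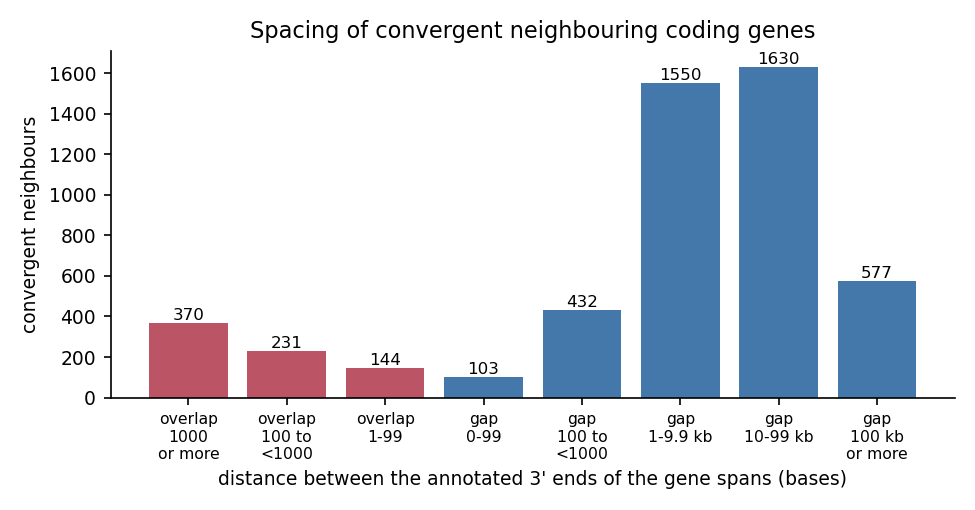
Number of couples of convergent neighbouring coding genes (y axis) by the distance between their annotated 3′ ends in bases (x axis), with overlapping gene spans in red and gaps in blue. Overlapping spans make up 745 of the 5037 couples, and the gap classes of 1 to 9.9 kb (1550) and 10 to 99 kb (1630) are the fullest.

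Genes in these pairs differed in annotation from other coding genes, as a description without a test. Their exon bases had a median of 3110 against 2513, their 3′ UTR a median of 760 bases against 602, and their exon number a median of 10 against 6. The gene span differed less, with medians of 18065 and 16371 bases. A single coding transcript was annotated for 34.2% of members and 51.2% of other genes, and no 3′ UTR after the stop codon for 1.14% and 9.82%. The rule favours genes with an annotated 3′ end, so these values are not independent of it. By chromosome, members made up from 2.56% of coding genes on X to 8.32% on chromosome 5, and the median overlap ran from 121 bases on chromosome 13 to 491 on chromosome 5.

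The poly(A) signal was found at a similar share of the ends of members and of other genes, as a description without a test. The letters AATAAA or ATTAAA were searched on the strand of the gene in the last 50 bases of its outermost coding transcript. They were found at 929 of 1313 member ends read (70.8%) and at 13599 of 19518 other ends (69.7%), beginning a median of 23 bases before the end in both. Ends of genes with no 3′ UTR after the stop codon stayed in these counts. Such genes were 1.14% of members and 9.82% of other genes, so the sets of ends are unlike. The shares without such ends were not computed. Of 653 pairs in which both ends were read, 329 (50.4%) had a hexamer at both ends, 268 (41.0%) at 1 end and 56 (8.58%) at neither. By overlap length the share of ends with a hexamer was 64.3% at 1 to 10 bases, 76.1% at 11 to 30, 74.7% at 31 to 74 and 78.0% at 75 to 249. It was 65.2% at 250 to 999 bases and 68.4% at 1000 or more. Where a single block ran from end to end, 431 of 492 hexamers (87.6%) lay inside the overlap. Only the last 50 bases were searched, so in a block of 50 bases or more every hexamer found counted as inside. That share therefore follows largely from the lengths of the blocks. The reversed letters TTTATT or TTTAAT, which are the hexamers of the opposite strand, were found in the last 50 bases of 18.4% of member ends and 11.4% of other ends. The rule places the end of a partner close by, so this share is not independent of it. The overlaps, coding bases included, were 46.4% G or C. The 3′ UTR bases of the same genes outside the overlap were 45.6%, so the sets compared differ in kind.

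**Figure D5:**
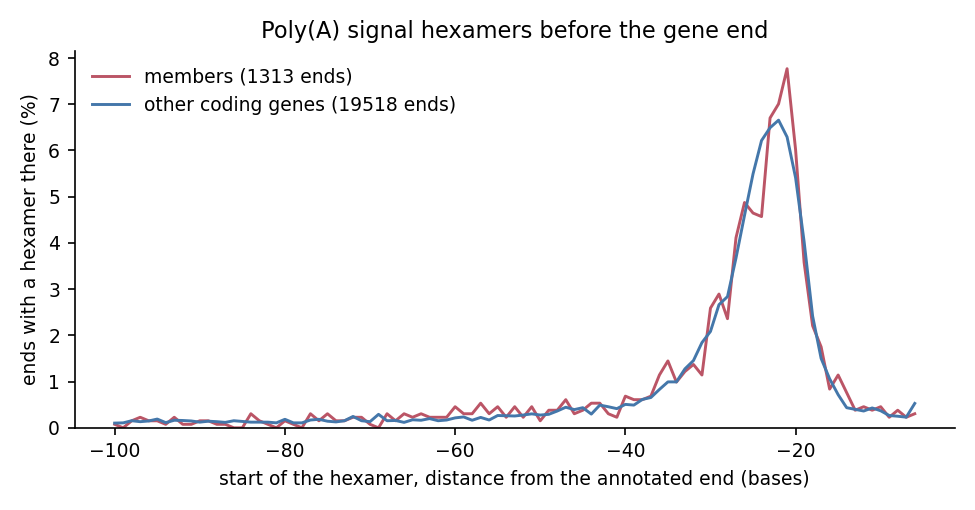
Share of gene ends (y axis, percent) at which AATAAA or ATTAAA starts at a given distance before the annotated end (x axis, bases), for the 1313 member ends in red and the 19518 ends of other coding genes in blue. Both lines peak a little over 20 bases before the end, and the medians within 50 bases of the end are 23 for both.

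Members were counted in 8 gene lists chosen for this study. They held 11 of 139 listed genes (7.91%, beside 6.1% of all coding genes), and no list is set apart by so few members. Of 22 genes of mRNA 3′ end processing, the machinery that makes the ends described here, 4 were members. Cpsf7 had 169 coding bases in 3′ UTR of Tmem216, a pair that was not found in GENCODE M21. Cstf2, a subunit that binds downstream of the poly(A) signal, had 399 bases of 3′ UTR in common with Nox1, an NADPH oxidase gene. Fip1l1 had 466 with Lnx1, of which 295 coded in Lnx1, and Cpsf1 had 8 with Adck5.

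Of 21 genes of double-stranded RNA binding, sensing and editing, 2 were members. Adar, which deaminates adenosine in double-stranded RNA, had 1365 bases in common with Chrnb2, a nicotinic receptor subunit gene, in 4 blocks, and 138 of them coded in both. Between the longest coding transcripts 351 bases were in common, and between RefSeq spans 8. Dgcr8, the microRNA processing partner of Drosha, had 825 bases of 3′ UTR in common with Trmt2a, a tRNA methyltransferase gene, and 0 between the longest coding transcripts. The Trmt2a-Dgcr8 overlap was again 825 bases in GENCODE M21, and the RefSeq spans had 825 bases in common. Of 17 mechanically gated channels Piezo1 and Pkd1 were members. Pkd1, which encodes polycystin 1, had 578 bases of 3′ UTR in common with Tsc2, which encodes the growth regulator tuberin (chr17:24595937-24596514). The overlap took 59.3% of the 3′ UTR of Pkd1 and 86.5% of that of Tsc2.

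Of 22 hypoxia response genes Egln2, a prolyl hydroxylase that marks hypoxia-inducible factor, had 11 bases in common with Cyp2t4, and 0 between the longest coding transcripts or RefSeq spans. Ankrd37 had 57 in common with Ufsp2, a protease gene. Of 14 macrophage markers Csf1r, the receptor for M-CSF, had 871 bases in common with Hmgxb3, of which 10 coded in Hmgxb3. Only 1 of 2 coding transcripts of Csf1r reached this overlap. It was again 871 bases between the longest coding transcripts, and 0 between RefSeq spans. None of 20 inflammatory genes, 16 AP-1 and immediate early genes or 7 endothelin pathway genes was a member.

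In all, 5 genes belonged to 2 pairs each. Ncaph2, a condensin subunit gene, had 827 bases in common with Sco2, a copper chaperone gene of cytochrome oxidase, and 535 with Tymp, which encodes thymidine phosphorylase. Upf1, the helicase of nonsense-mediated decay, had 71 with Cers1 and 66 with Gdf1. Vprbp had 146 with Manf and 75 with Rbm15b, and Glmn had 352 with a gene known by a clone name and 91 with 1700028K03Rik. Gtf3a, which encodes transcription factor IIIA, had 965 and 491 with genes that both carry the name Mtif3. These were named because they belong to 2 pairs, after their values were seen.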

How the data were processed

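Poly(A) RNA of 4 groups, 1 library each, was sequenced as paired 75-base reads, per the labels' protocols. The authors deposited a gene annotation of GRCm38, whose columns of start and end positions were used; which release it is, and whether the libraries kept the strand, the sources read for this work do not state. CASAVA 1.8, FastQC, TopHat2, Bowtie2 and Cufflinks are named, with no order, in the submitters' processing notes. Library values, and so depth, were not analysed here.

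Pairs were found with Python 3.11.15 and numpy 2.4.6. Stop codons were counted as coding, and a base coding in any transcript as coding. The search was tested on simulated data. Bases were read from GENCODE M21 transcripts laid on GRCm38 exon coordinates; no base laid more than once differed (0 of 111782164). RefSeq spans were those of its GRCm38 assembly. Sequences of 1 chromosome, 18, were not printed.

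The members and lists were chosen with earlier results of these data known. Named pairs were Piezo1-Ctu2, the 10 longest, the 10 shortest, the 5 nearest to the median, the 10 with most bases coding in both, the next 5 by share of the gene with fewer exon bases, and every pair with a listed gene. No test was run. The alternatives varied the smallest overlap, the transcripts, gene span, annotation and hexamer window.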

Additional observations from a re-analysis of the deposited data

How the results depend on the processing

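The number of pairs lay between 471 and 737 under the alternatives tried, against 665, and stayed within 1.5 times it. The median overlap of 244 bases became 390 with at least 75 bases required and 424 with at least 100, since short pairs were then left out. Pairs with 3′ UTR alone, 50.5%, became 39.96% and 38.2% under these limits, and pairs with coding bases, 49.5%, became 60.0% and 61.8%. With only the longest coding transcript of each gene these shares were 57.3% and 42.7%, and the share with bases coding in both genes fell from 10.4% to 5.38%. The share of ends with a hexamer, 70.8%, was 62.2% in a 30-base window, 73.7% in a 100-base window and 58.0% for AATAAA alone. The Ctu2-Piezo1 overlap of 990 bases was 2441 with exons of all transcripts. The comparison with RefSeq spans, 525 pairs, was added after seeing the data. Of 45 alternative values, 32 stayed close to the reported one and 13 moved. Close meant within 1.5 times for the number of pairs, inside a 95% interval for the median and the shares, and equal for Ctu2-Piezo1. These limits are unlike in width, so the count of 32 mixes them. No paired analysis was possible because no library value was analysed here and no test was run. The pairs are annotated, and whether macrophages make both transcripts was not tested.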
